A study of Homo sapiens with 8 samples.

Results

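Replication-dependent histone genes were taken as every listed gene whose symbol matched the H1-1 to H1-6, H2AC, H2BC, H3C or H4C series, with the highest-count entry standing for a symbol. The rule found 66 genes among 46427 listed for NCI-H1944 and the same number, 66, among 61271 listed for NCI-H647. They comprised 6 H1, 16 H2A, 17 H2B, 13 H3 and 14 H4 genes. NCI-H647 and NCI-H1944 are established human lung cancer cell lines, labelled as wild type in this series. Cells were given the MPS1 inhibitor BAY-1217389 (MPS1i) at 100 nM, or DMSO, for 48 h, the agent was then washed out, and RNA was collected after a further 24 h. MPS1, encoded by TTK, is the spindle checkpoint kinase that delays anaphase until chromosomes are attached, so its inhibition leads to chromosome missegregation. There were 2 libraries in each of the 4 groups, and no label says that these were grown as separate cultures. The p-values therefore reflect library-to-library spread alone, which may be technical. NCI-H647 RNA was depleted of ribosomal RNA, whereas NCI-H1944 RNA was selected by its poly(A) tails, so the line and the kit cannot be told apart.

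Replication-dependent histone genes supply the histones that package newly copied DNA. H3 and H4 form the tetramer at the centre of the nucleosome, H2A and H2B form the dimers on either side, and H1 binds the linker DNA. Most of these genes have no introns, are induced in S phase, and give mRNAs that end in a short stem-loop instead of a poly(A) tail. Stem-loop binding protein, SLBP, holds that hairpin from 3' end cleavage through translation, and the mRNAs are degraded when DNA replication stops. Some members are known also to give polyadenylated transcripts, which carry the message past the hairpin. Libraries made by ribosomal depletion read both forms, and libraries made by poly(A) selection read mainly the tailed form.

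The hairpin that defines these mRNAs was read from GENCODE 29 transcripts (GRCh38). Most of these mRNAs end at it instead of in a poly(A) tail, and the 2 library types differ in selecting for that tail. Of 32 members whose transcripts ran at least 36 bases past the stop codon, 26 held a perfect 6-base stem around a 4-base loop with at least 3 T. The hairpin began 22 to 67 bases after the stop codon. Below, the 16-base hairpin is in capitals, with 5 flanking bases on each side in lower case, 5′ to 3′.
H2AC18: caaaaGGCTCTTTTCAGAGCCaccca
H2BC21: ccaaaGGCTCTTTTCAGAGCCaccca
H2BC4: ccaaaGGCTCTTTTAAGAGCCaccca
H3C15: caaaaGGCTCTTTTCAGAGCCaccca
H4C8: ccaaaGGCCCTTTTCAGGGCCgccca
H4C15: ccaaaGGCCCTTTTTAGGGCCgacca
These 6 sites show all 4 hairpin sequences found, and the commonest, seen here in H2AC18, H2BC21 and H3C15, was in 15 members. For 18 members, at least 1 annotated transcript ran 100 bases or more past the hairpin.

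The promoter of the member with the highest NCI-H647 count in each class is shown because most members changed together in that line. The 150 bases upstream of each start come from RefSeq (GRCh38.p14), which matched 61 of 66 members with 65 promoters. Capitals mark 3 motifs on either strand: the CCAAT box, the TATA box in its form TATAAA, and the octamer ATTTGCAT.
H1-2, chr6:26056471-26056620, minus strand: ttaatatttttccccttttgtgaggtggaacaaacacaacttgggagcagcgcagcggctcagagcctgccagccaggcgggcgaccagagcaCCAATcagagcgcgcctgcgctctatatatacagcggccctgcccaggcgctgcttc
H2AC18, chr1:149842751-149842900, minus strand: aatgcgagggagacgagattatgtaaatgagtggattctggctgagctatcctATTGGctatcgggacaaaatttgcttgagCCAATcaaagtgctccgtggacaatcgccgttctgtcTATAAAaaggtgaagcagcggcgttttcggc
H2BC21, chr1:149886683-149886832, minus strand: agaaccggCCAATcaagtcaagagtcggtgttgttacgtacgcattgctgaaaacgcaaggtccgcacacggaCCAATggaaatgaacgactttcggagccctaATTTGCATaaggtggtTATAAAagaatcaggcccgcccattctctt
H3C15, chr1:149852458-149852607, plus strand: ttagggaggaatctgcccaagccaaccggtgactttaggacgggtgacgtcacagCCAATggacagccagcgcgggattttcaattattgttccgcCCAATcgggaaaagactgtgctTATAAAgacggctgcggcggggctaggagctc
H4C11, chr6:27823942-27824091, plus strand: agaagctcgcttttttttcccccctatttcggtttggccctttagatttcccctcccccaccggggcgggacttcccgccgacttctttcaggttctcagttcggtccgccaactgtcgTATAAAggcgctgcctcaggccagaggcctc
Within 250 bases upstream, CCAAT was in 56 of 65 member promoters, against 32.0% of all 35116 promoters searched. TATAAA was in 44 of 65, against 10.7% of all promoters. The octamer was in 27 of 65, against 1.63% of all promoters, and 15 of those 27 were H2B promoters and 11 H2A promoters. Among H4 promoters 3 of 12 held CCAAT and 0 of 12 the octamer. Head-to-head H2A and H2B genes start 169 to 250 bases apart, so their windows overlap and the same match can count for both partners. These matches describe the letters only, and no binding was measured.

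Members lay in 4 groups along the genome (GRCh38, coordinates as deposited for NCI-H647). The first, on chromosome 1 from 149782689 to 149887965, held 11 members, and those on chromosome 6 held 34 members from 25726063 to 26285638, 5 from 27125897 to 27147562 and 16 from 27807479 to 27893891.

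Depth and identity of the libraries were as follows. Totals were 13563037 and 13358514 counts in NCI-H647 MPS1i libraries and 19550859 and 17243487 in its DMSO libraries. In NCI-H1944 they were 43661342 and 43067647 counts with MPS1i and 39332931 and 38904473 with DMSO. Levels are given as CPM, the counts of a gene per 1000000 counts in its library. The epithelial keratins KRT8 and KRT18 were at 181 to 259 CPM in NCI-H647 and 1585 to 2717 CPM in NCI-H1944, while other epithelial markers differed by line. CDH1 was at most 0.674 CPM in NCI-H647 and 33.5 to 39.2 CPM in NCI-H1944, KRT19 was at 7.60 to 10.8 CPM in NCI-H647 and at 0 in NCI-H1944, and EPCAM was at most 5.23 CPM in either line. The lung markers NKX2-1 and SFTPB were at 0 in every NCI-H1944 library, and NKX2-1 reached 2.77 CPM in NCI-H647. The leukocyte marker PTPRC was at 0 in NCI-H1944 and at most 0.409 CPM in NCI-H647, while CD14 was at 1.47 to 2.09 CPM in NCI-H1944. Summed leukocyte markers were at 2.43 and 2.55 CPM with MPS1i and 0.972 and 0.928 CPM with DMSO in NCI-H647, where 1 of 4, CD14, rose. Summed endothelial and fibroblast markers were at 28.5 and 29.6 CPM with MPS1i and 20.9 and 19.6 CPM with DMSO in NCI-H1944, where 3 of 4 rose and VWF was too low to test. Their part in the results was not tested.

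In NCI-H647, histone mRNA fell across all 5 classes after MPS1i. Member counts made up 0.486% and 0.512% of the MPS1i libraries, against 1.501% and 1.42% of the DMSO libraries. Of 61 members that passed the low-count filter, 57 were lower and 0 higher, with a median log2 fold change of -1.74, or 3.34-fold lower (edgeR quasi-likelihood test, Benjamini-Hochberg adjusted p below the 0.05 threshold over all 15049 genes tested). The background in this line was broad: 27% of all tested genes were lower and 27.3% higher, with a median log2 fold change of 0.01. Both MPS1i libraries lay below both DMSO libraries for 57 members, against 33.9% of all tested genes, and for 0 members did both lie above, against 42.5%. In these bulk samples, fewer cells in S phase and less histone RNA per cell cannot be told apart. The 5 members not tested were H1-6 and H4C9, with at most 6 counts in a library, and H2AC1, H2BC1 and H4C7, at 0 in every library.

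**Figure D1:**
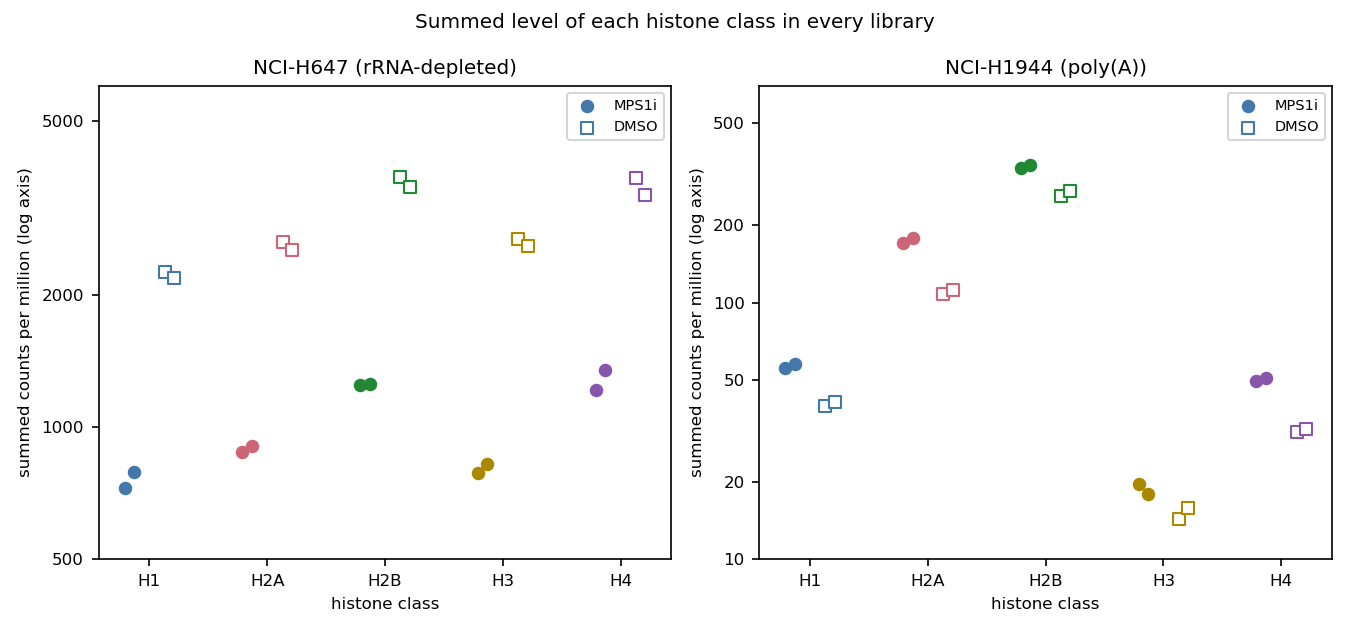
Summed CPM (log axis) of the members of each histone class in every library, with filled circles for MPS1i and open squares for DMSO. In NCI-H647 each class lay lower in both MPS1i libraries, and in NCI-H1944 each class lay higher.

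Summed over a class, which does not depend on how reads were divided among near-identical copies, the ratios in NCI-H647 were alike, from 2.77-fold to 3.27-fold lower. H1 summed to 726 and 790 CPM with MPS1i and 2262 and 2194 CPM with DMSO, which is 2.94-fold lower. H2A summed to 877 and 904 CPM with MPS1i, against 2644 and 2531 CPM with DMSO, or 2.91-fold lower. H2B stood at 1251 and 1255 CPM with MPS1i, against 3714 and 3526 CPM with DMSO, or 2.89-fold lower. The largest ratio was that of H3, at 788 and 824 CPM with MPS1i against 2680 and 2582 CPM with DMSO, or 3.27-fold lower, and the smallest that of H4, at 1214 and 1347 CPM with MPS1i against 3709 and 3380 CPM with DMSO, or 2.77-fold lower. The groups did not overlap in any class, and these sums had no test of their own. H2B supplied 25.1% of member counts with MPS1i and 24.8% with DMSO, and H4 supplied 25.7% with MPS1i and 24.3% with DMSO.

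All 5 tested linker histone genes fell in NCI-H647. H1-2, the linker histone with the highest count there, was at 288.5 and 306 CPM with MPS1i and 743.7 and 740 CPM with DMSO, a log2 fold change of -1.37 ± 0.04 (SE, adjusted p = 1.39e-13). H1-4 was at 211.9 and 238 CPM with MPS1i and 681.5 and 655.2 CPM with DMSO. H1-5 was at 136 and 149 CPM with MPS1i against 607 and 571 CPM with DMSO, a log2 fold change of -2.09 ± 0.05 (adjusted p = 2.25e-14), the largest fall in its class. The groups were separate for each of these genes. H1-3 had the smallest fall of the class, with a log2 fold change of -1.29 ± 0.05.

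H2A and H2B, which pair as dimers, fell in 14 of 15 and 16 of 16 tested members. H2AC17 was at 88.3 and 96.9 CPM with MPS1i and 334 and 300.2 CPM with DMSO, a log2 fold change of -1.83 ± 0.06 (adjusted p = 1.02e-12). H2AC6 was at 114 and 114 CPM with MPS1i and 282 and 268 CPM with DMSO, a log2 fold change of -1.32 ± 0.04. Tested H2A members ranged from -2.06 for H2AC21 to -0.43 for H2AC19, which did not pass the test. Among H2B genes, H2BC4 was at 135 and 146 CPM with MPS1i and 451 and 433 CPM with DMSO (log2 fold change -1.70 ± 0.04), and H2BC12 at 125 and 115 CPM with MPS1i and 422 and 381 CPM with DMSO (-1.79 ± 0.05). H2BC21, at 229 and 208 CPM with MPS1i and 415 and 416 CPM with DMSO, had the smallest fall of its class, with a log2 fold change of -0.97 ± 0.04 (adjusted p = 5.03e-11). H2BC7 had the largest, at -2.17 ± 0.06.

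The 4 largest falls among members in NCI-H647 were in core tetramer genes, although summed H4 had the smallest fall of any class. H3C2 (ENSG00000286522, chromosome 6, 26031589 to 26032099) was at 83.8 and 80.1 CPM with MPS1i and 406 and 363 CPM with DMSO, which is 4.85-fold lower (log2 fold change -2.28 ± 0.05, adjusted p = 5.26e-14). H4C1 was at 9.73 and 8.98 CPM with MPS1i and 43.1 and 39.8 CPM with DMSO, H4C4 at 35.9 and 38.0 CPM with MPS1i and 164 and 161 CPM with DMSO, and H3C8 at 9.81 and 8.83 CPM with MPS1i and 43.3 and 38.3 CPM with DMSO. Their log2 fold changes were -2.20 ± 0.08, -2.19 ± 0.05 and -2.18 ± 0.09 in that order. These 4 were the largest falls among the tested members, at levels that differed severalfold. The H2B gene H2BC7 followed closely, at -2.17 ± 0.06.

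H3C2 was also among the 3 H3 genes with the most counts, and the other well-read H3 and H4 genes had these values. H3C15 was at 245.5 and 238 CPM with MPS1i and 725 and 719 CPM with DMSO, a log2 fold change of -1.63 ± 0.03. H3C3 was at 180.4 and 209.6 CPM with MPS1i and 519.6 and 506 CPM with DMSO (-1.44 ± 0.05). H4C11 was at 278 and 296 CPM with MPS1i and 842 and 743 CPM with DMSO (-1.51 ± 0.05), and H4C5 at 221 and 246 CPM with MPS1i and 733 and 676 CPM with DMSO (-1.64 ± 0.05). H4C12, whose coding sequence is identical to that of H4C11, was at 202 and 250.2 CPM with MPS1i and 454 and 399 CPM with DMSO (-0.96 ± 0.07), so the division of reads between H4C11 and H4C12 is uncertain. The smallest change among H3 genes was that of H3C6, at 7.82 and 7.04 CPM with MPS1i and 14.4 and 13.5 CPM with DMSO (-0.96 ± 0.12, adjusted p = 7.37e-06).

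Levels between genes were compared per kilobase of gene span, and only among the 52 members that span at most 1000 bases, since longer spans include sequence outside the short mRNA. H4C11 was listed highest, although its rank depends on the uncertain division of reads with H4C12, at 715.5 and 762 CPM per kilobase with MPS1i and 2166 and 1911 CPM per kilobase with DMSO. H4C5 followed, at 537 and 598 with MPS1i and 1780 and 1642 with DMSO, and H3C15 was next, at 474 and 460 with MPS1i and 1400 and 1388 with DMSO, all in CPM per kilobase. By DMSO levels H4C5 and H3C15 did not overlap. With MPS1i, H4C12, at 522 and 646.6 CPM per kilobase as listed, overlapped with H4C5.

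**Figure D2:**
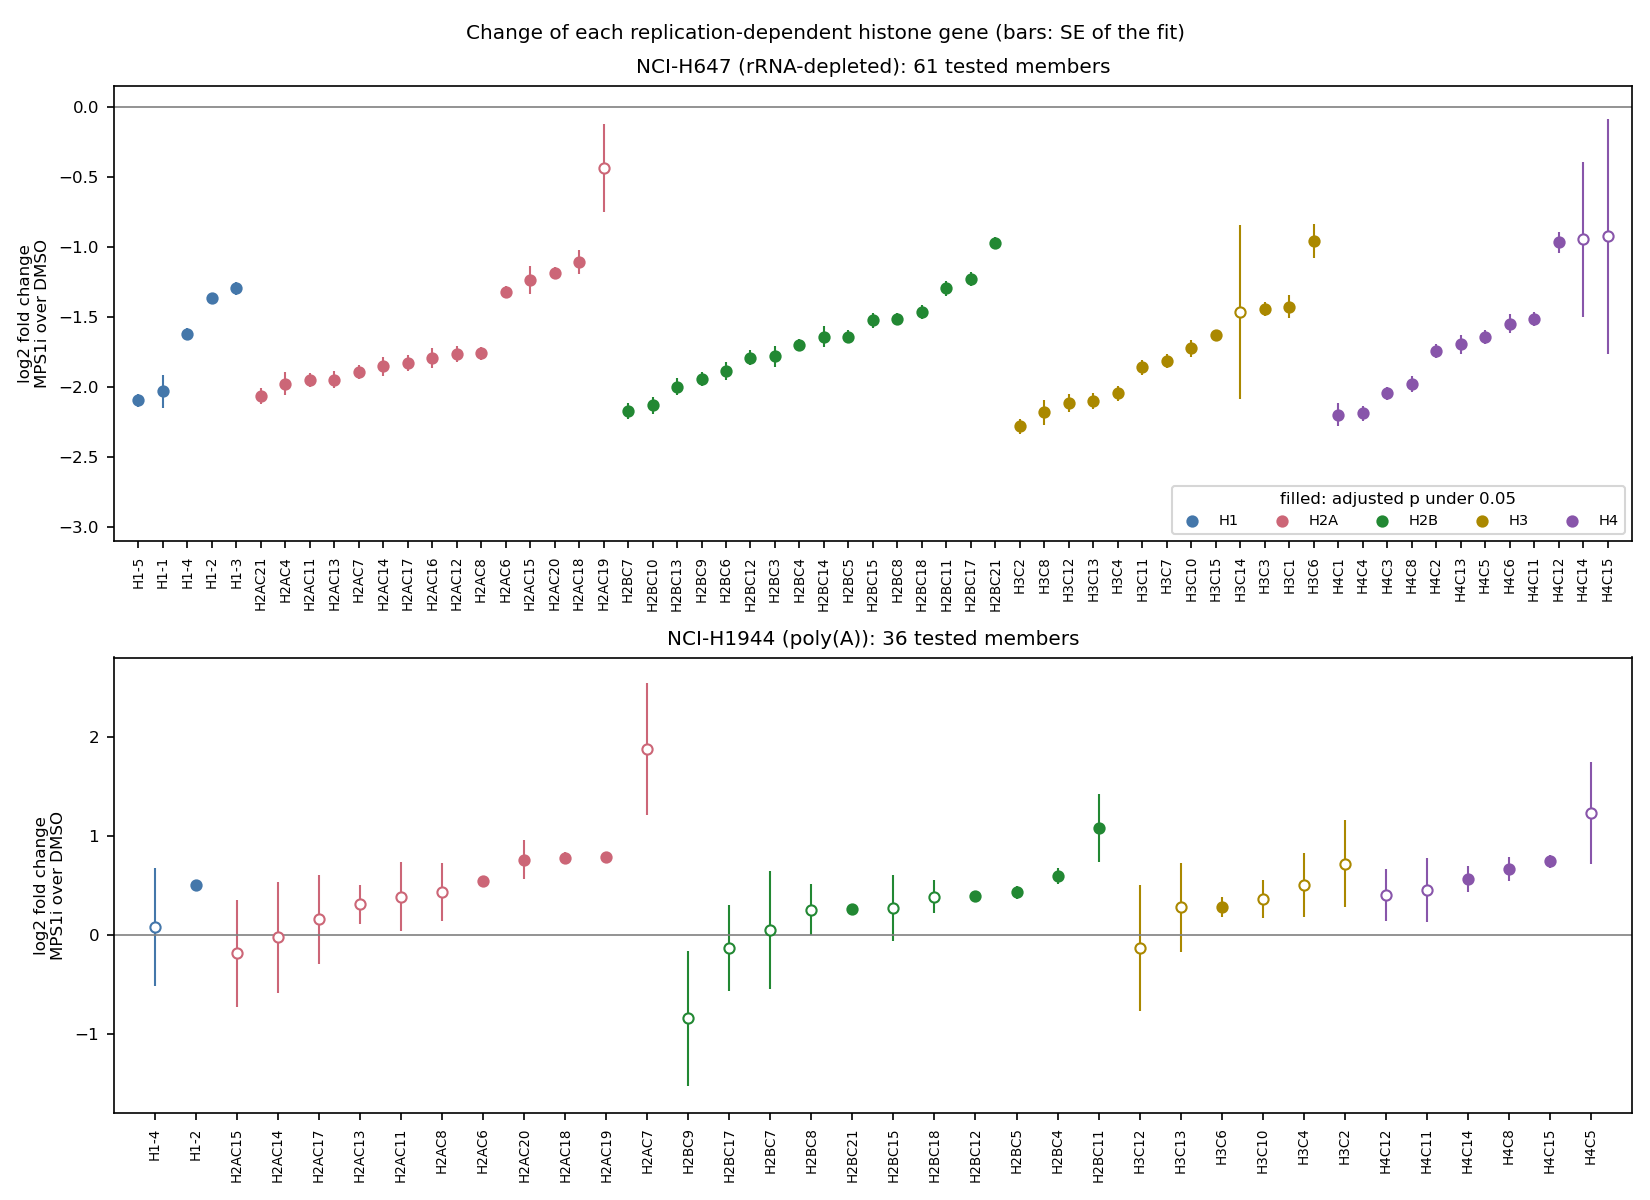
Log2 fold change, MPS1i over DMSO, of each tested member by class, with bars for the standard error of the fit and filled points for an adjusted p under 0.05. All 61 NCI-H647 points lie below 0, and 14 of the 36 NCI-H1944 points are filled, all of them above 0.

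The 4 tested members that were not called in NCI-H647 belong to pairs on chromosome 1 whose coding sequences are identical, so that reads of 1 copy cannot be assigned with certainty. H4C14 was at 47.9 and 145 CPM with MPS1i and 308 and 46.6 CPM with DMSO, while its copy H4C15 was at 107 and 18.9 CPM with MPS1i and 6.24 and 228 CPM with DMSO. H4C14 thus took 30.9% and 88.5% of the pair's counts with MPS1i and 98.02% and 16.97% with DMSO. The split moved between libraries of 1 group, but the sum did not: the pair stood at 155 and 164 CPM with MPS1i and 315 and 275 CPM with DMSO, or 1.85-fold lower. H2AC18 and H2AC19 together were at 182 and 174 CPM with MPS1i and 347 and 332 CPM with DMSO, or 1.91-fold lower. H3C14 and H3C15 together were at 245.5 and 254 CPM with MPS1i and 736 and 749 CPM with DMSO, or 2.98-fold lower, and H3C14 held at most 6.08% of that pair in any library. Single libraries decided the calls of these copies. Without DMSO replicate 1, H4C14 was called higher (log2 fold change 0.99) and H4C15 lower (-1.90), and without DMSO replicate 2, H4C14 was called lower (-1.74) and H4C15 higher (3.28). H3C14 was called lower without either DMSO replicate or MPS1i replicate 2, and H2AC19 without DMSO replicate 1 or MPS1i replicate 1. With the replicate number as a block all 4 were called lower (edgeR adjusted p = 3.61e-22 for H4C14, 7.38e-41 for H3C14, 7.87e-14 for H2AC19 and 0.0326 for H4C15). Between same-numbered libraries, however, H4C14 fell in replicate 1 and rose in replicate 2, and H4C15 and H2AC19 did the reverse. The blocked calls of H4C14, H4C15 and H2AC19 therefore show no consistent fall. The pair sums had no test.

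**Figure D3:**
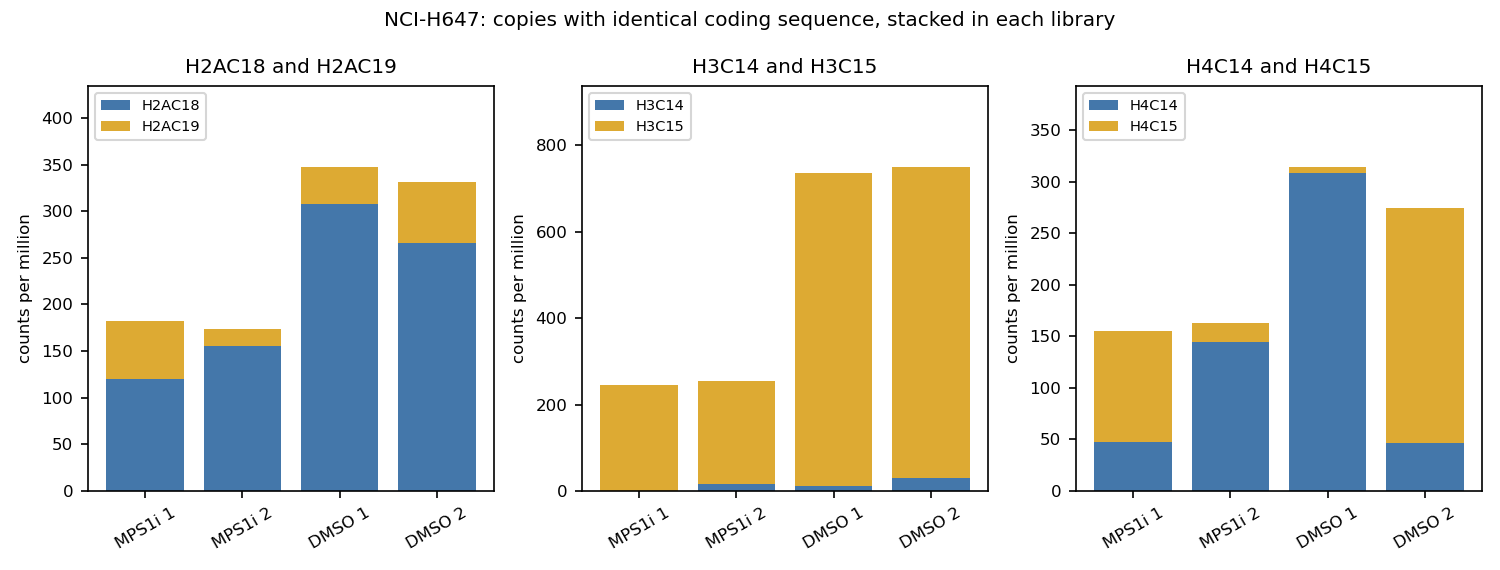
CPM in each NCI-H647 library for 3 pairs of genes with identical coding sequence, stacked so that the bar height is the pair's sum. The division of H4C14 and H4C15 shifts between libraries of the same group, whereas each pair's sum is lower in both MPS1i libraries.

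The chromosome 1 group as a whole had a median log2 fold change of -1.19 over 11 tested members in NCI-H647, against -1.797, -1.78 and -1.76 in the 3 chromosome 6 groups, with 7 of 11 lower on chromosome 1 and 30 of 30, 4 of 4 and 16 of 16 lower on chromosome 6. The 11 pairs of H2A and H2B genes that start head to head, 169 to 250 bases apart, share the interval between them. In the 10 pairs with both genes tested, the log2 fold changes of the partners differed by a median of 0.26, with 8 of 10 pairs within 0.5. Over the 230 other combinations of a tested H2A and a tested H2B gene the median was 0.34, with 155 within 0.5, and whether partners are closer was not tested. H2BC12 and H2AC12 were the closest, 0.03 apart, and H2BC11 and H2AC11 the farthest, 0.66 apart.

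In NCI-H1944, whose libraries read tailed RNA, no tested member was called lower after MPS1i and 14 were called higher. Member counts made up 0.0629% and 0.0648% of the MPS1i libraries, against 0.0453% and 0.0474% of the DMSO libraries. Only 36 of 66 members passed the filter, and 6 were at 0 in every library. Of the 36, 14 were higher and 0 lower, with a median log2 fold change of 0.40, against 13.6% of all 16738 tested genes higher and 12.4% lower, with a median of 0.00. Both MPS1i libraries lay above both DMSO libraries for 26 members, against 28.9% of tested genes, and below for 1, against 32.4%. The members that passed could do so through the group in which they were higher, and 19 of the 22 not called had a mean below 100 counts.

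Summed levels in NCI-H1944 were higher in every class, from 1.248-fold to 1.58-fold. H2A summed to 171 and 178 CPM with MPS1i and 108 and 112 CPM with DMSO, or 1.58-fold higher. H4 stood at 49.4 and 51.1 CPM with MPS1i and 31.3 and 32.2 CPM with DMSO, or 1.58-fold higher, and H1 at 55.4 and 57.5 CPM with MPS1i and 39.5 and 41.0 CPM with DMSO, or 1.40-fold higher. H2B held most of the reads, at 334 and 343 CPM with MPS1i and 259.7 and 272 CPM with DMSO, or 1.27-fold higher. H3 was the lowest, at 19.6 and 17.9 CPM with MPS1i and 14.3 and 15.8 CPM with DMSO, or 1.248-fold higher. The groups did not overlap in any class, and these sums had no test.

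The H1 and H2A rises in NCI-H1944 lay in 5 genes. Nearly all linker histone reads came from H1-2, at 54.3 and 57.1 CPM with MPS1i and 39.0 and 40.6 CPM with DMSO, a log2 fold change of 0.50 ± 0.05 (adjusted p = 1.98e-06). H1-4 was at 0.458 and 0.186 CPM with MPS1i and 0.331 and 0.283 CPM with DMSO, and H1-3, at 16 and 2 counts with MPS1i and 2 and 5 with DMSO, was too low to test. Of 11 tested H2A genes 4 rose. H2AC6 was at 55.9 and 61.5 CPM with MPS1i and 41.5 and 39.8 CPM with DMSO (0.54 ± 0.06). The copies H2AC18 and H2AC19 were at 50.2 and 50.6 CPM and at 53.2 and 54.1 CPM with MPS1i, against 28.5 and 30.8 CPM and 30.4 and 32.5 CPM with DMSO, both with a log2 fold change of 0.78 (adjusted p = 2.42e-08 and 1.44e-08). Their even split here, with H2AC18 at 48.3% to 48.7% of the pair in all 4 libraries, contrasts with 66.2% to 89.5% in NCI-H647. As their coding sequences are identical, both calls may rest on shared reads and are not independent. The pair together was at 103 and 105 CPM with MPS1i and 58.9 and 63.3 CPM with DMSO, or 1.70-fold higher, and this sum had no test. H2AC20 was at 3.39 and 3.85 CPM with MPS1i and 2.26 and 2.06 CPM with DMSO (0.76 ± 0.20, adjusted p = 0.0089), and without MPS1i replicate 2 its adjusted p was 0.068 (0.00216 to 0.068 over all alternatives). H2AC7, at 12 and 41 counts with MPS1i and 4 and 9 with DMSO, had the largest estimate, 1.88 ± 0.67, and did not pass (adjusted p = 0.0503). It passed without DMSO replicate 2 (adjusted p = 0.0142), without MPS1i replicate 1 (0.0201) and with the replicate number as a block (0.0352), and no other alternative changed its call.

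Of 11 tested H2B genes in NCI-H1944, 5 rose. H2BC21 and H2BC12 had the most reads of all members there. H2BC21 was at 125 and 128 CPM with MPS1i and 106 and 106 CPM with DMSO, a log2 fold change of 0.26 ± 0.04 (adjusted p = 5.37e-05). H2BC12 was at 123 and 130.1 CPM with MPS1i and 95.5 and 99.2 CPM with DMSO (0.39 ± 0.04). H2BC5 was at 51.6 and 52.8 CPM with MPS1i and 35.5 and 42.8 CPM with DMSO (0.43 ± 0.07), and H2BC4 at 24.3 and 22.3 CPM with MPS1i and 15.1 and 16.1 CPM with DMSO (0.59 ± 0.08). H2BC11 had the largest rise that passed, 1.08 ± 0.35, but at 51 and 56 counts with MPS1i and 27 and 19 with DMSO (adjusted p = 0.0312). That call was lost without DMSO replicate 2 (adjusted p = 0.16) and without either MPS1i replicate (0.0914 and 0.16), by the DESeq2 Wald test (0.147) and with no low-count filter (0.0774), with a range of 0.0216 to 0.16 over all alternatives. Another H2B call, that of H2BC5, was lost only with no low-count filter (adjusted p = 0.0529, the highest over all alternatives, against 5.08e-12 for the lowest).

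Core tetramer genes were sparse in NCI-H1944. Of 6 tested H3 genes only H3C6 passed, at 12.6 and 11.2 CPM with MPS1i and 9.58 and 10.2 CPM with DMSO (0.28 ± 0.10, adjusted p = 0.0483), and it did not pass without either DMSO replicate (adjusted p = 0.178 and 0.0634) or without MPS1i replicate 1 (0.307), nor by the DESeq2 Wald test (0.206) or without the low-count filter (0.144). Over all alternatives its adjusted p ran from 0.0302 to 0.307. H3C10 was at 3.71 and 3.39 CPM with MPS1i and 2.39 and 3.19 CPM with DMSO, and H3C4 at 1.33 and 1.11 CPM with MPS1i and 0.712 and 1.03 CPM with DMSO. Of 6 tested H4 genes 3 rose. H4C15 was at 30.3 and 29.8 CPM with MPS1i and 18.5 and 17.8 CPM with DMSO (0.74 ± 0.07), its copy H4C14 at 6.96 and 7.94 CPM with MPS1i and 5.01 and 5.17 CPM with DMSO (0.56 ± 0.13), and H4C8 at 8.61 and 8.73 CPM with MPS1i and 5.21 and 5.81 CPM with DMSO (0.67 ± 0.12, adjusted p = 5.65e-04). The call for H4C14 was lost without MPS1i replicate 2 (adjusted p = 0.0537, and 0.00205 to 0.0537 over all alternatives).

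Among members known to give tailed transcripts, H1-2, H2AC6, H2BC4, H2BC5, H2BC12, H2BC21 and H4C8, all 7 rose in NCI-H1944 and all 7 fell in NCI-H647. In NCI-H1944 they held 70.4% and 71.0% of member counts with MPS1i and 74.5% and 74.0% with DMSO, whereas in NCI-H647 they held 21.8% and 20.6% with MPS1i and 19.2% and 19.4% with DMSO. Their median log2 fold change was 0.50 in NCI-H1944, against 0.38 for the other 29 tested members, and -1.64 in NCI-H647, against -1.76 for the other 54. The list came from general knowledge, was written with earlier results of these data known, and is not independent evidence. In NCI-H1944, 9 of 13 tested members that span over 1000 bases rose, against 5 of 23 that span at most 1000, and 13.6% of all tested genes. Spans were those listed for NCI-H647, and read depth differed between members. Of the 16 tested members with a mean of at least 100 counts in NCI-H1944, 13 were called. Of the 22 not called, 19 had a lower mean. Of the 18 members with an annotated transcript reaching 100 bases or more past the hairpin, 13 were tested and 6 rose, against 8 of the 23 other tested members. Those others are not all members that end at the hairpin. H1-2, H2AC20 and H2BC12 had 0 annotated bases past the stop codon, and H2BC11 and H3C6 ran past it without a perfect hairpin. Only 32 of 66 members had enough sequence past the stop codon to search, so this split follows the annotation and the match rule. The part of span, read depth or transcript ends in these calls was not tested.

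**Figure D4:**
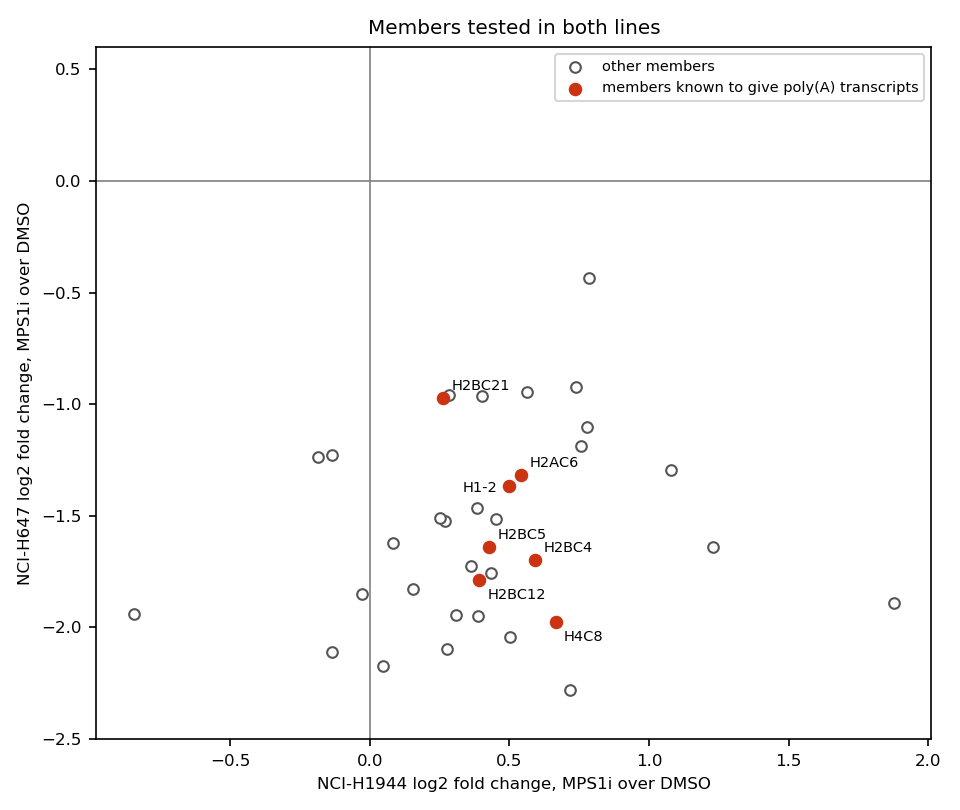
Log2 fold change, MPS1i over DMSO, in NCI-H647 (vertical axis) against NCI-H1944 (horizontal axis) for the 36 members tested in both lines, with the 7 members known to give tailed transcripts filled. Every point lies below 0 on the vertical axis, and the 7 filled points lie right of 0 on the horizontal axis.

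The change with MPS1i differed between the lines for most members tested in both. In a joint fit of the 8 libraries over 12887 shared symbols, the interaction term, NCI-H647 change minus NCI-H1944 change, was negative and passed the test for 33 of 36 members, against 22.7% of all symbols tested, and positive for 0, against 17.4%. The 3 that did not pass were H2BC9, H4C14 and H4C15. Calls in opposite directions were made for 11 members: H1-2, H2AC6, H2AC18, H2AC20, H2BC4, H2BC5, H2BC11, H2BC12, H2BC21, H3C6 and H4C8. For H2BC4 the interaction was -2.31 ± 0.07 (edgeR adjusted p = 1.52e-16), and for H2BC21 it was -1.26 ± 0.05 (adjusted p = 1.08e-14). The interaction compares 2 sets of libraries that differ in cell line, RNA selection and counting table at the same time.

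Variant and linker histone genes outside the member set moved in both directions. H1-10, a linker histone, rose in NCI-H647 to 104 and 106 CPM with MPS1i, against 87.1 and 85.4 CPM with DMSO (log2 fold change 0.23 ± 0.05), and fell in NCI-H1944 to 122 and 122 CPM with MPS1i, against 139 and 141 CPM with DMSO (-0.19 ± 0.04). H2AX, the variant phosphorylated at DNA breaks, fell in both, to 62.0 and 61.0 CPM with MPS1i against 113 and 113 CPM with DMSO in NCI-H647 (-0.92 ± 0.05) and to 62.3 and 63.6 CPM with MPS1i against 106 and 99.8 CPM with DMSO in NCI-H1944 (-0.70 ± 0.04). CENPA, the centromeric H3, likewise fell, by 0.91 ± 0.07 and 0.87 ± 0.10 on the log2 scale. The H2A.Z genes H2AZ1 and H2AZ2 fell in NCI-H647 (-0.67 ± 0.04 and -0.74 ± 0.04) and in NCI-H1944 (-0.38 ± 0.04 and -0.46 ± 0.04), and so did H3-3A, which encodes H3.3 (-0.37 ± 0.04 and -0.30 ± 0.03). The other H3.3 gene, H3-3B, rose in NCI-H1944 (0.23 ± 0.03) and was at 0.05 ± 0.04 in NCI-H647. MACROH2A1 fell in NCI-H647 alone by the test (-0.40 ± 0.04, against -0.08 ± 0.04), and H2AJ passed in neither line. Of the list read here, 1 rose and 6 fell of 9 tested in NCI-H647, and 1 rose and 6 fell of 10 in NCI-H1944. Over all tested genes 27.3% rose and 27% fell in NCI-H647, and 13.6% rose and 12.4% fell in NCI-H1944.

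Genes that start histone transcription and cut the mRNA 3' end were counted next. In NCI-H647, 5 of 25 tested rose and 9 fell, with a median log2 fold change of -0.07. Over all tested genes 27.3% were higher and 27% lower, so the pooled shares lie near the background. All 9 falls were in the 3' end part of the list: SLBP, LSM11, CPSF2, CPSF3, NCBP1, SNRPD3, SNRPE, SNRPF and SNRPG. CPSF3 and CPSF2 were at -0.62 ± 0.05 and -0.38 ± 0.04. The rises were HINFP, CCNE1 and CDKN1A, and from the 3' end part ZNF473 and SRRT. This division was made with the values in view and was not tested. NPAT, the coactivator of histone promoters, was at 68.3 and 71.7 CPM with MPS1i and 64.4 and 69.7 CPM with DMSO (0.02 ± 0.06), and CASP8AP2, its partner, at 52.9 and 55.1 CPM with MPS1i and 52.5 and 57.6 CPM with DMSO. HINFP, the H4 promoter factor, rose to 19.2 and 18.5 CPM with MPS1i, against 12.8 and 13.5 CPM with DMSO (0.47 ± 0.09). SLBP was at 45.1 and 46.8 CPM with MPS1i and 48.9 and 48.2 CPM with DMSO (-0.13 ± 0.05, adjusted p = 0.0455), a call that did not hold without either DMSO replicate (adjusted p = 0.203 and 0.141) or MPS1i replicate 1 (0.173), with a range of 0.0353 to 0.351 over all alternatives. LSM11, a core part of the U7 particle that cuts histone pre-mRNA, fell (-0.63 ± 0.12), while its partner LSM10 was at 0.08 ± 0.12, and ZNF473, another U7 factor, rose (0.35 ± 0.11, adjusted p = 0.015, 0.21 without MPS1i replicate 1 and 0.0039 to 0.21 over all alternatives). CCNE1, the cyclin E that activates NPAT through CDK2, rose (0.44 ± 0.08), CDK2 was at -0.13 ± 0.05 (adjusted p = 0.0505, 0.0417 without MPS1i replicate 1 and 0.0417 to 0.267 over all alternatives), and CDKN1A, the p21 inhibitor of that kinase, rose to 56.9 and 61.2 CPM with MPS1i, against 10.8 and 12.5 CPM with DMSO (2.30 ± 0.07). In NCI-H1944, 1 of 25 rose and 0 fell, against 13.6% of all tested genes higher and 12.4% lower. The gene that rose was CDKN1A (0.11 ± 0.02). Its level there was 785 and 801 CPM with MPS1i and 742 and 742 CPM with DMSO.

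Of 11 genes of histone mRNA decay, 5 rose and 4 fell in NCI-H647, against 27.3% of all tested genes higher and 27% lower. TUT7, which adds uridines to histone mRNA, rose (0.62 ± 0.05), and so did UPF1, the helicase that SLBP recruits for decay (0.29 ± 0.06). ERI1, the exonuclease that trims the hairpin, fell (-0.25 ± 0.05), as did the decapping enzyme DCP2 (-0.56 ± 0.04). In NCI-H1944, XRN1 and SMG1 rose (0.33 ± 0.07 and 0.43 ± 0.04) and 0 of 11 fell, against 13.6% of all tested genes higher and 12.4% lower. In NCI-H647 XRN1 fell (-0.21 ± 0.05) and SMG1 rose (0.15 ± 0.04).

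Histone chaperones, which carry histones to DNA, mostly fell in NCI-H647: 3 rose and 18 fell of 24, with a median of -0.37. Over all tested genes 27.3% were higher and 27% lower. CHAF1B and CHAF1A, subunits of the replication-coupled assembly factor, fell (-0.76 ± 0.06 and -0.41 ± 0.06), as did ASF1B (-0.56 ± 0.08), NASP, the carrier of soluble H3 and H4 (-0.49 ± 0.04), and HJURP, the CENP-A chaperone (-0.35 ± 0.05). The 3 that rose were UBN1, DAXX and HIRA (0.49 ± 0.06, 0.36 ± 0.06 and 0.15 ± 0.06), which act on H3.3, while CABIN1, of the HIRA complex, fell (-0.28 ± 0.05) and ATRX, the partner of DAXX, was at -0.03 ± 0.05. In NCI-H1944 10 of 24 fell and 0 rose, against 12.4% of all tested genes lower and 13.6% higher. HJURP was at -0.63 ± 0.06 there and CHAF1B at -0.03 ± 0.06. The falls of ASF1B and NASP there (-0.30 ± 0.10 and -0.14 ± 0.04) were each lost without some single libraries, with adjusted p of 0.0246 to 0.293 and 0.0126 to 0.193 over all alternatives. These were DMSO replicate 1 or MPS1i replicate 1 for ASF1B and replicate 2 of either group for NASP.

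S phase genes also fell in NCI-H647. All 25 on the list were lower, SLBP among them, with a median log2 fold change of -0.77, against -1.74 for the members. Among all tested genes 27% were lower. RRM2 and TYMS, which supply deoxynucleotides, fell (-0.54 ± 0.04 and -0.91 ± 0.05), as did PCNA, the replication clamp (-0.43 ± 0.06). Summed levels of this list were 1515 and 1511 CPM with MPS1i and 2365 and 2359 CPM with DMSO. In NCI-H1944 14 of 25 fell and 0 rose, with a median of -0.15, where 14 of the members rose. The shares over all tested genes there were 12.4% lower and 13.6% higher. TYMS and RRM2 fell there too (-0.35 ± 0.04 and -0.22 ± 0.04), and PCNA was at -0.06 ± 0.04. TTK, which encodes the inhibitor's target, fell in both lines, by 0.72 ± 0.04 in NCI-H647 and 0.71 ± 0.08 in NCI-H1944. The inhibitor acts on the protein, so this level does not check the labels.

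**Figure D5:**
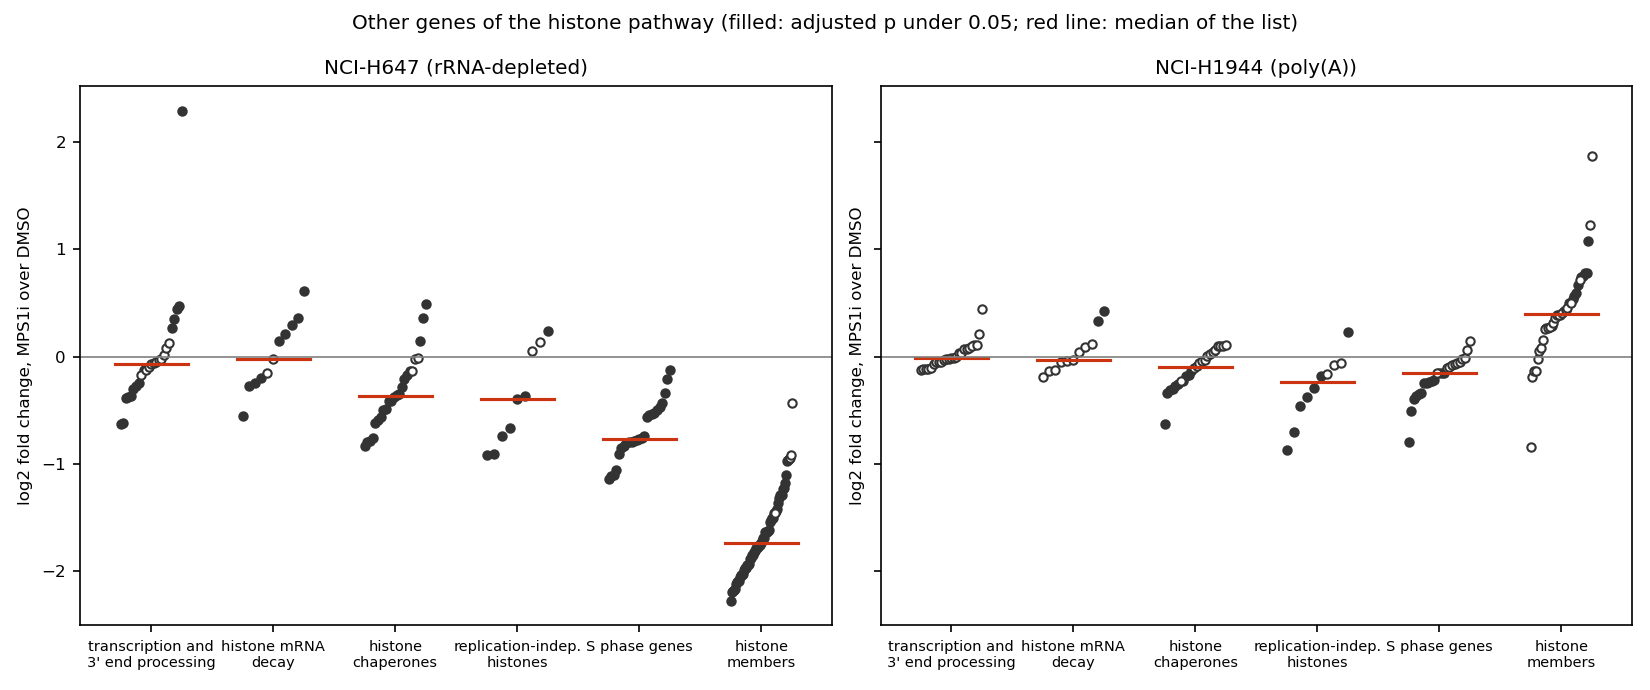
Log2 fold change, MPS1i over DMSO, of tested genes in 5 pathway lists and of the histone members, with filled points for an adjusted p under 0.05 and a red line at each median. In NCI-H647 the members' median of -1.74 lies below that of every list, and in NCI-H1944 their median of 0.40 lies above every list.

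Other RNAs without tails were read beside the histone mRNAs. Of 10 structured RNAs chosen after the files were seen, 8 rose and 0 fell in NCI-H647, with a median of 0.20. Over all tested genes in that line 27.3% rose and 27% fell. RN7SK, which holds back transcription elongation, was at 21276 and 20436 CPM with MPS1i and 17223 and 15443 CPM with DMSO (0.30 ± 0.04, adjusted p = 1.13e-05). RMRP, an RNA-processing ribozyme component, was at 5004 and 5444 CPM with MPS1i and 4594 and 4261 CPM with DMSO (0.19 ± 0.04). The 10 together summed to 53173 and 51814 CPM with MPS1i, against 45364 and 39712 CPM with DMSO. In NCI-H1944 the same 10 summed to 11.4 and 16.2 CPM with MPS1i and 12.8 and 11.3 CPM with DMSO, and of the 5 tested 0 passed.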

How the data were processed

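RNA-seq libraries of 2 cell lines were read from the deposited tables, which hold raw counts per gene as whole numbers, 1 table per line. Per the labels' protocols, column-purified RNA was treated with DNase. NCI-H647 was depleted of ribosomal RNA and converted for an MGI sequencer, and NCI-H1944 was poly(A) selected, both with stranded kits. Per the submitters' processing notes, Trim Galore, Trimmomatic, cutadapt, STAR, featureCounts, HISAT2, StringTie and GRCh38 were used. The sources used here do not give their versions, the table each made, the annotation or the strand setting, so overlapping, antisense and near-identical genes are uncertain.

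Each line was fitted whole in R 4.3.3 with edgeR 4.0.16 (filterByExpr with a minimum count of 10 and total of 15, TMM factors, quasi-likelihood F test, two-sided, Benjamini-Hochberg over all genes tested, threshold 0.05). SE is the log2 fold change divided by the square root of F. Differences between lines are an interaction term over 12887 of 32128 shared symbols. Alternatives used DESeq2 1.42.0, other filters and scalings, single libraries left out and a replicate block.

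Members, lists and tests were chosen with earlier results of these data known, and 3 lists (structured RNAs, other histone genes and context genes) were added after the files were seen. Members named were the 3 with most counts per class, the 4 largest rises and falls at a mean of at least 20 counts with separate groups, those called in opposite directions, those known to be polyadenylated, and fixed histone variants and regulators. Other genes named serve as extremes, list examples or markers and were picked with their values in view. One gene of the naming rule is not reported here and was left out of its list.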

Additional observations from a re-analysis of the deposited data

Results flagged for a closer look

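The change with MPS1i differed between NCI-H647 and NCI-H1944 by the interaction term of the joint edgeR fit for 33 members, all more negative in NCI-H647. Values below are NCI-H647 change minus NCI-H1944 change on the log2 scale, from 2 libraries per group, and the line, the kit and the table cannot be told apart. Among linker histones it was -1.89 for H1-2 and -1.73 for H1-4. Among H2A genes it was -2.004 for H2AC17, -1.91 for H2AC18, -1.25 for H2AC19, -1.96 for H2AC20 and -1.88 for H2AC6. For H2AC18 and H2AC19, and for H4C11 and H4C12 below, the division of reads between the copies is uncertain. Among H2B genes it was -2.39 for H2BC11, -2.20 for H2BC12, -1.26 for H2BC21, -2.31 for H2BC4 and -2.09 for H2BC5. Among H3 genes it was -2.11 for H3C10, -3.02 for H3C2, -2.57 for H3C4 and -1.26 for H3C6, and among H4 genes -1.99 for H4C11, -1.39 for H4C12, -2.89 for H4C5 and -2.67 for H4C8.

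Histone genes outside the replication-dependent set also differed by this term. The difference was positive for H1-10 (0.40). It was negative for H2AX (-0.24), H2AZ1 (-0.31), H2AZ2 (-0.31), H3-3B (-0.20) and MACROH2A1 (-0.34). With 2 libraries per group, no group was large enough to look for single samples far from the others.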

How the results depend on the processing

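The count of members lower in NCI-H647 was 57 under other scalings, filters and the DESeq2 Wald test, 58 to 60 with 1 library left out and 61 with a replicate block, and the count higher in NCI-H1944 was 11 to 15 over all alternatives. The 61 lower members under the block include H4C14, H4C15 and H2AC19, whose change reversed between replicate numbers. Summed class levels kept their direction under both other scalings and without each library. Leaving out 1 library at a time gave 0 to 1 H3 members higher in NCI-H1944, 0 to 1 members and 0 to 1 H4 members higher in NCI-H647 (H4C14 without DMSO replicate 1, H4C15 without DMSO replicate 2, whose reads moved between copies), and 0 to 1 members with a positive interaction (H4C15 without NCI-H647 DMSO replicate 2). H3 members higher in NCI-H1944 were 0 by the DESeq2 Wald test and 0 with no low-count filter, against 1. With no filter, where more genes share the adjustment, H2B members higher were 3, against 5, and all genes in NCI-H1944 were 1319 higher and 1006 lower, against 2271 and 2075. In NCI-H647 the DESeq2 Wald test called 2666 genes higher, against 4114, and the cause was not tested. No named call turned to the opposite direction. Replicate numbers are shared by the groups, but same-numbered libraries did not deviate together (correlations 0.0439 in NCI-H1944 and 0.00255 in NCI-H647), so they were not treated as pairs. The block gave 15 members higher in NCI-H1944 and 32 negative interactions, whose count was 33 as reported and 31 to 42 over all alternatives. Low member counts limit NCI-H1944 most, where 30 to 33 of 66 members had under 10 counts in a library although its libraries were the deeper ones.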

Other observations

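Some further histone genes carry symbols outside the patterns used. H4-16, a further H4 gene, was at 42.2 and 43.6 CPM with MPS1i and 92.9 and 85.7 CPM with DMSO in NCI-H647 and was lower (log2 fold change -1.11 ± 0.06, edgeR adjusted p = 4.92e-10). H2BU1, an H2B gene, was at 11.7 and 12.7 CPM with MPS1i and 17.4 and 15.3 CPM with DMSO there and was also lower (-0.47 ± 0.11). H2AW, an H2A gene, was at 9.58 and 7.94 CPM with MPS1i and 10.5 and 10.3 CPM with DMSO and did not pass the test, and H3-4 was at 0. In NCI-H1944, H2AW was at 18.6 and 20.5 CPM with MPS1i and 18.6 and 18.4 CPM with DMSO, and 0 of the 3 tested passed. These genes were chosen after their values were seen.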
